A study of Oryza sativa with 6 samples.

Results

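Transcripts of 43 rice genes that encode heat shock proteins (HSPs) and heat shock factors (HSFs) were followed in detached leaves kept in the dark with or without 6-benzyl adenine (BA), a synthetic cytokinin. The genes were chosen by name, with earlier results of these data known. A gene was taken when its symbol or a synonym began with HSP or HSF followed by a number or class letter, and when at least 1 probe set of the array listed it alone. Of 49 genes so named, 43 had such a probe set, out of 17905 genes listed alone by any probe set. They comprise 19 small HSPs, 4 large chaperones and 20 factors, and each was read from its brightest probe set. HSP16.9C, HSP18.9, HSP19.0, HSFA6A, HSFB4C and HSFC2B had no probe set of their own and were not analysed here.

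The arrays hold RNA of the third leaf of 30-day-old Nagina 22 (N22) plants, a rice cultivar grown in soil. Untreated leaves were dipped for 72 h in darkness in a dilute solution of NaOH and Tween 20 (3 arrays), and BA-treated leaves in the same solution with BA at 2 mg/ml (3 arrays). Dark-induced senescence (DIS) is therefore common to both groups, no unincubated leaf was compared, and the labels give a fresh weight of leaf for each sample but not the number of plants pooled. Replicates are described in the study's methods as biological. A characteristic in the labels gives a shorter time in darkness, whereas the extraction protocol and the study's methods give 72 h, which is used here.

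HSPs are chaperones, proteins that keep other proteins folded or rescue those that have lost their shape. Small HSPs hold unfolding proteins so that they do not aggregate, the HSP90 family matures signalling proteins, and HSP101 pulls aggregated proteins apart. HSFs are the transcription factors that bind heat shock elements in the promoters of these genes, and class A factors act mainly as activators whereas class B factors act mainly as repressors in Arabidopsis and tomato. Plants form large families of both, small HSPs are nearly absent from unstressed leaves and accumulate in heat and other stresses, and cytokinin is best known in detached leaves for delaying senescence.

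None of the 43 genes passed the test for a difference between BA-treated and untreated leaves at an adjusted p under 0.05 (limma with Benjamini-Hochberg adjustment), a threshold that 0.159% of all 57258 rice probe sets and 0.29% of genes read from their brightest probe set passed in either direction. At an unadjusted p under 0.05, 8 of the genes were lower and 4 higher with BA, where 4.25% and 4.24% of all probe sets and 7.84% and 6.42% of genes were. At the thresholds used in the study, over 1.5-fold with an unadjusted p under 0.05, 6 were lower, all of them small HSPs (HSP16.0, HSP17.4, HSP17.7, HSP18.0, HSP18.6 and HSP23.2), and 2 were higher, HSP18.8 and HSFA5. Of all probe sets, 2.16% were lower and 1.73% higher by that rule, and among genes the shares were 4.74% and 3.18%. Signals of the groups did not overlap for 11 genes that were lower with BA and for 5 that were higher, against 7.3% and 6.71% of all probe sets and 10.1% and 7.61% of genes. In leaf RNA, fewer cells of a type and less RNA per cell cannot be told apart.

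The 3 classes differed in how far their members lay from 0. The median log2 change (BA-treated minus untreated, on log2 of signal + 1) was -0.89 over the 19 small HSPs, -0.05 over the 4 large chaperones and -0.06 over the 20 factors, and it was -0.0035 over all rice probe sets. Of the small HSPs, 15 lay below 0, a share of 78.9% where 51.0% of all probe sets and 50.7% of genes did. Of the 19, 9 lay below -1, a share of 47.4% where 1.49% of all probe sets and 3.32% of genes lay below -1. The other small HSPs below 0 were HSP17.7 at -0.89 and 5 genes between -0.38 and -0.03. No large chaperone or factor lay below -1. The limit of -1 was set after the values had been seen and is only descriptive, and differences between the classes were not tested.

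**Figure D1:**
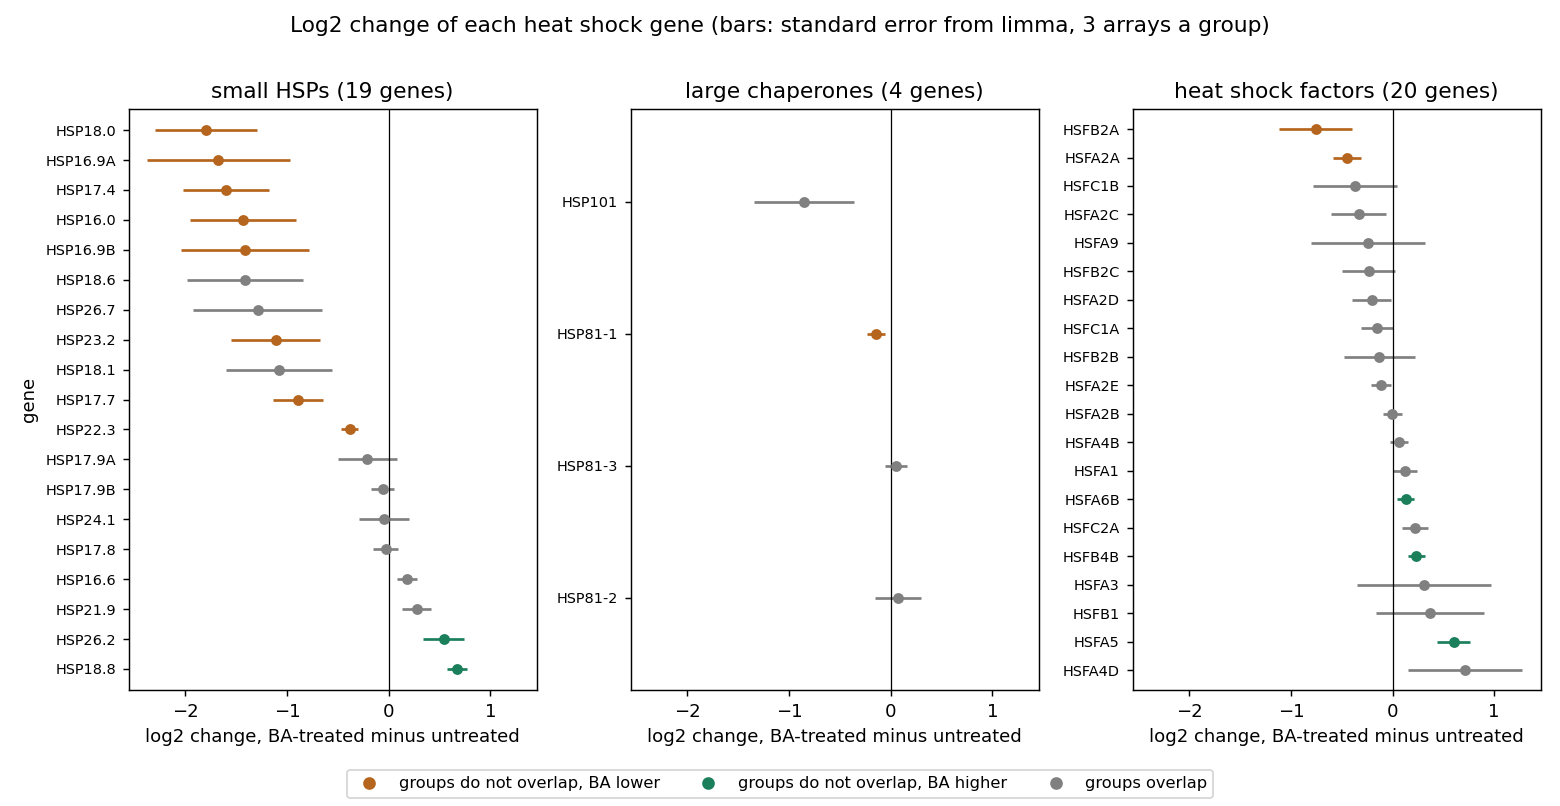
Log2 change of each of the 43 genes (x axis, BA-treated minus untreated, points with the standard error from limma, 3 arrays a group) in 3 panels for small HSPs, large chaperones and factors. Orange points are genes whose groups do not overlap with BA lower, green points those with BA higher and grey points those whose groups overlap, and 9 of the 19 small HSPs lie below -1 while no gene of the other panels does.

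Small HSPs of the cytosol held several of the lowest changes. HSP18.0, a class II protein of the cytosol, had signals of 122, 469 and 261 on untreated replicates 1, 2 and 3 and of 95.3, 55.1 and 65.9 on BA-treated replicates 1, 2 and 3. The groups did not overlap, but untreated replicate 1 was near the highest BA-treated array. The log2 change was -1.80 (SE 0.50, adjusted p = 0.358), the lowest of the 43. Of the other probe sets of this gene, one that can cross-hybridize gave a log2 change of -0.01 and another of lower signal gave -0.10, so the change rests on the brightest probe set.

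HSP17.4, HSP18.1 and HSP17.7 are class I proteins of the cytosol, and their genes are direct neighbours on chromosome 3 in the reference annotation. The HSP17.4 signal was 398, 544 and 198 on the untreated arrays and 169, 93.4 and 95.3 on the BA-treated arrays, with no overlap and a log2 change of -1.60 (SE 0.42, adjusted p = 0.331). The HSP17.7 signal was 151, 270 and 182 without BA and 129, 93.0 and 95.8 with BA, again with no overlap (log2 change -0.89, SE 0.24, adjusted p = 0.346). The HSP18.1 signal was 1232, 1764 and 626 without BA and 981, 374 and 389 with BA, and here the groups overlapped because BA-treated replicate 1 exceeded untreated replicate 3 (log2 change -1.08, SE 0.52, adjusted p = 0.686). All 3 neighbours were highest on untreated replicate 2, and among the BA-treated arrays all 3 were highest on replicate 1. Small HSPs of class I resemble each other in sequence, and the part of cross-hybridization in this likeness was not tested. A second probe set of HSP18.1, of a class open to cross-hybridization, gave -1.11. A dim second probe set of HSP17.7 gave -0.03.

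HSP17.9A, also of class I, lies on the same chromosome with 4 listed genes between it and that row, and was less different between the groups. Its signal was 1405, 2701 and 2509 on the untreated arrays and 1467, 2183 and 1924 on the BA-treated arrays, and every BA-treated value lay inside the untreated range (log2 change -0.21, adjusted p = 0.922). The difference between this gene and its neighbours was not tested.

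HSP16.9A and HSP16.9B, class I genes that follow each other on chromosome 1, were each high on a single untreated array, but not on the same one. Both genes, and HSP18.6, HSP26.7, HSP26.2, HSFA3, HSFA4D and HSFC1B, are given in detail outside the rule for named genes and were picked after their values had been seen. HSP16.9A had signals of 38.0, 41.8 and 235 on the untreated arrays and of 21.3, 19.8 and 25 on the BA-treated arrays (log2 change -1.67, SE 0.70, adjusted p = 0.605). HSP16.9B had signals of 32.5, 182 and 41.9 without BA and of 24.8, 23.4 and 21.2 with BA (log2 change -1.41, SE 0.63, adjusted p = 0.647). All BA-treated values of both genes lay near 16, the lowest signal on any array. The groups did not overlap for either gene, and yet the high array was untreated replicate 3 for the first and untreated replicate 2 for the second. Without that array the log2 change was -0.83 for HSP16.9A and -0.65 for HSP16.9B. The reference lists the name HSP16.9B for both genes, so which of them each probe set reads is open to doubt. In the same row of 5 neighbours, HSP16.6 and HSP17.9B showed log2 changes of 0.18 and -0.06.

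**Figure D2:**
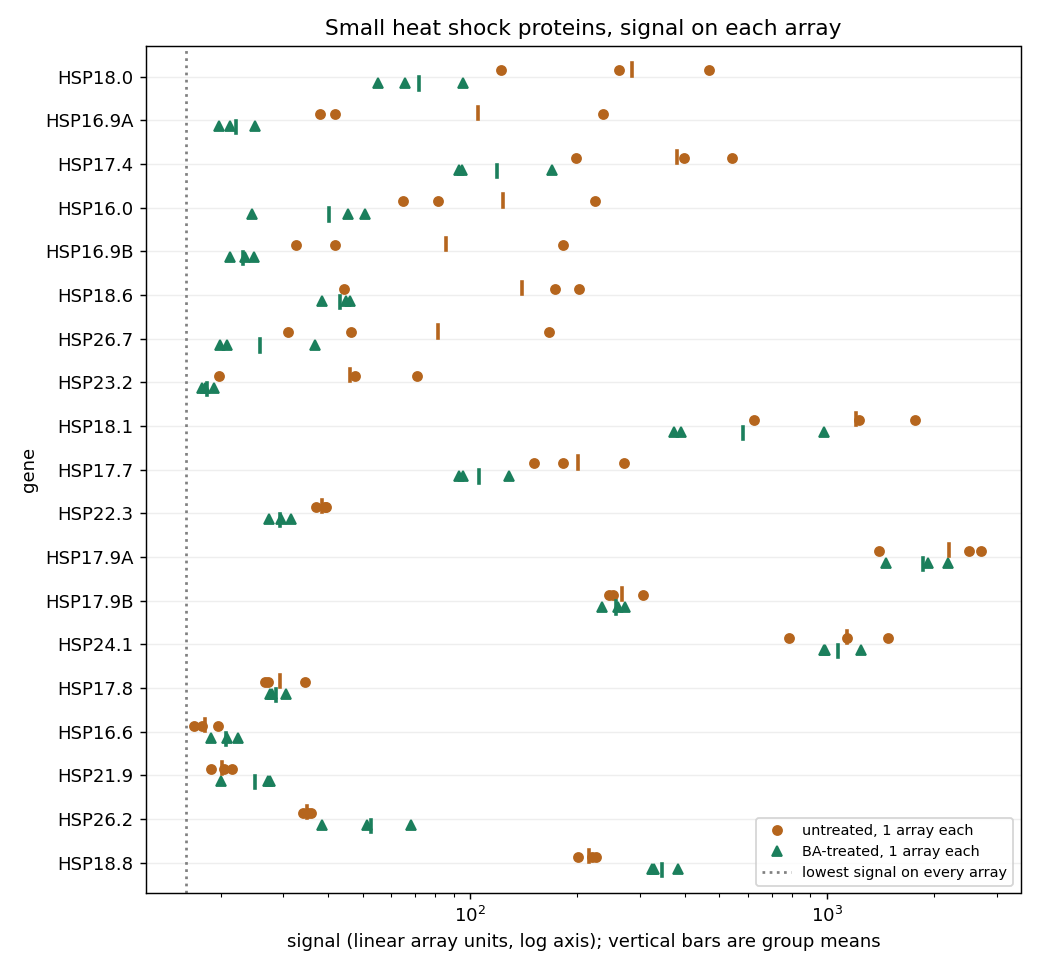
Signal of the 19 small HSPs on each array (x axis, linear array units on a log scale, 1 row a gene, circles untreated, triangles BA-treated, vertical bars the group means). The untreated circles of HSP16.9A, at 38.0, 41.8 and 235, spread more widely than its BA-treated triangles, at 21.3, 19.8 and 25, whereas HSP18.1 spreads in both groups, with triangles at 981, 374 and 389; the dotted line at 16 is the lowest signal on every array.

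Small HSPs of other compartments included genes as low with BA as those of the cytosol. HSP16.0, a protein of the peroxisome, had signals of 64.9, 225 and 81.1 on the untreated arrays and of 24.6, 50.9 and 45.6 on the BA-treated arrays, with no overlap (log2 change -1.43, SE 0.52, adjusted p = 0.524, and -0.90 without untreated replicate 2). HSP23.2, of the endoplasmic reticulum, had signals of 19.7, 70.8 and 47.7 without BA and of 18.1, 19.1 and 17.7 with BA (log2 change -1.11, SE 0.44, adjusted p = 0.569). Its BA-treated arrays and untreated replicate 1 were all close to 16, the lowest signal on any array, so the ratio understates any difference below that level. Without untreated replicate 2 the change was -0.72.

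HSP26.7, of the chloroplast, had signals of 46.4, 166 and 30.9 without BA and of 36.8, 20.9 and 19.9 with BA (log2 change -1.29, SE 0.63, adjusted p = 0.700). On BA-treated replicates 2 and 3 HSP26.7 was near the lowest signal of 16. Its groups overlapped, and untreated replicate 2 was the only array far from the others. Without it the log2 change was -0.59. HSP18.6, a class III protein, had signals of 44.4, 173 and 202 on the untreated arrays and of 44.8, 46.0 and 38.6 on the BA-treated arrays (log2 change -1.41, SE 0.57, adjusted p = 0.583). Untreated replicate 1 was as low as the BA-treated arrays. With that array left out HSP18.6 was the only heat shock gene to pass the test (log2 change -2.09, adjusted p = 0.0354). Leaving out the array that goes against the difference had to enlarge it. Without untreated replicate 2 the log2 change was -1.12 (limma adjusted p = 0.738) and without untreated replicate 3 it was -1.01 (limma adjusted p = 0.673). HSP18.6 was read from a probe set open to cross-hybridization. Its second probe set, of the class designed for a single transcript, gave signals of 37.9, 57.8 and 77.3 against 30.6, 26.1 and 30.9, with no overlap and a log2 change of -0.90 (adjusted p = 0.369), and a dim further probe set gave 0.07.

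The mitochondrial small HSPs were not among the low ones. HSP24.1 had signals of 1141, 1488 and 784 without BA and of 1247, 988 and 982 with BA, with all BA-treated values inside the untreated range (log2 change -0.05, adjusted p = 0.983). HSP26.2 had signals of 35.9, 35.1 and 34.0 on the untreated arrays and of 38.4, 68.2 and 51.5 on the BA-treated arrays, which did not overlap (log2 change 0.54, SE 0.20, adjusted p = 0.542). The change was 0.34 without BA-treated replicate 2. HSP26.2 was read from a probe set open to cross-hybridization.

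Some small HSPs had closely grouped replicates in both groups. HSP22.3 had signals of 39.4, 39.3 and 37.0 without BA and of 27.3, 31.4 and 29.6 with BA, with no overlap (log2 change -0.38, SE 0.08, adjusted p = 0.227). HSP18.8 was higher with BA, at 383, 328 and 323 against 220, 201 and 225 without it (log2 change 0.67, SE 0.10, adjusted p = 0.11). It had the smallest p of all 43 genes and its arrays were well apart, but its only probe set is of a class open to cross-hybridization. The remaining small HSPs, HSP17.8, HSP16.6 and HSP21.9, had log2 changes of -0.03, 0.18 and 0.28 with overlapping groups.

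The spread of the small HSPs was, by its median, larger among the untreated arrays. The median SD of log2 signal over the 19 genes was 0.52 among untreated and 0.20 among BA-treated arrays, where it was 0.25 and 0.18 over genes read from their brightest probe set and 0.15 and 0.12 over all rice probe sets. BA-treated replicates 2 and 3 were much alike over all probe sets (SD of the log2 difference 0.16). Some of the small HSPs, HSP16.9A, HSP16.9B and HSP23.2 among them, were near the lowest signal with BA. The part of either in the smaller BA-treated spread was not tested. Untreated replicate 2 was the highest of the 6 arrays for 11 of the 19 small HSPs and for 7 of the 9 with a change below -1, and untreated replicate 3 was the highest for the other 2 of those 9. For these 9 genes the median deviation from the gene's own mean was -0.07, 1.44 and 0.34 on untreated replicates 1, 2 and 3, and -0.57, -0.89 and -0.86 on BA-treated replicates 1, 2 and 3. Untreated replicate 1 was therefore the untreated array nearest to the BA-treated ones. Without untreated replicate 2 the median log2 change of the small HSPs was -0.59, with 13 of 19 below 0. Without BA-treated replicate 3 the count of small HSPs lower at the study's thresholds was 3 in place of 6, and it was 10 both with an intensity trend in the spread and with array weights. Calls by limma over all probe sets moved too, from 53 higher and 38 lower in the main fit. They were 73 and 63 with the trend, 150 and 130 with array weights, and 0 and 0 without BA-treated replicate 3. Shares of all probe sets at the study's thresholds were not taken for these settings, so the count of 10 has no background beside it.

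**Figure D3:**
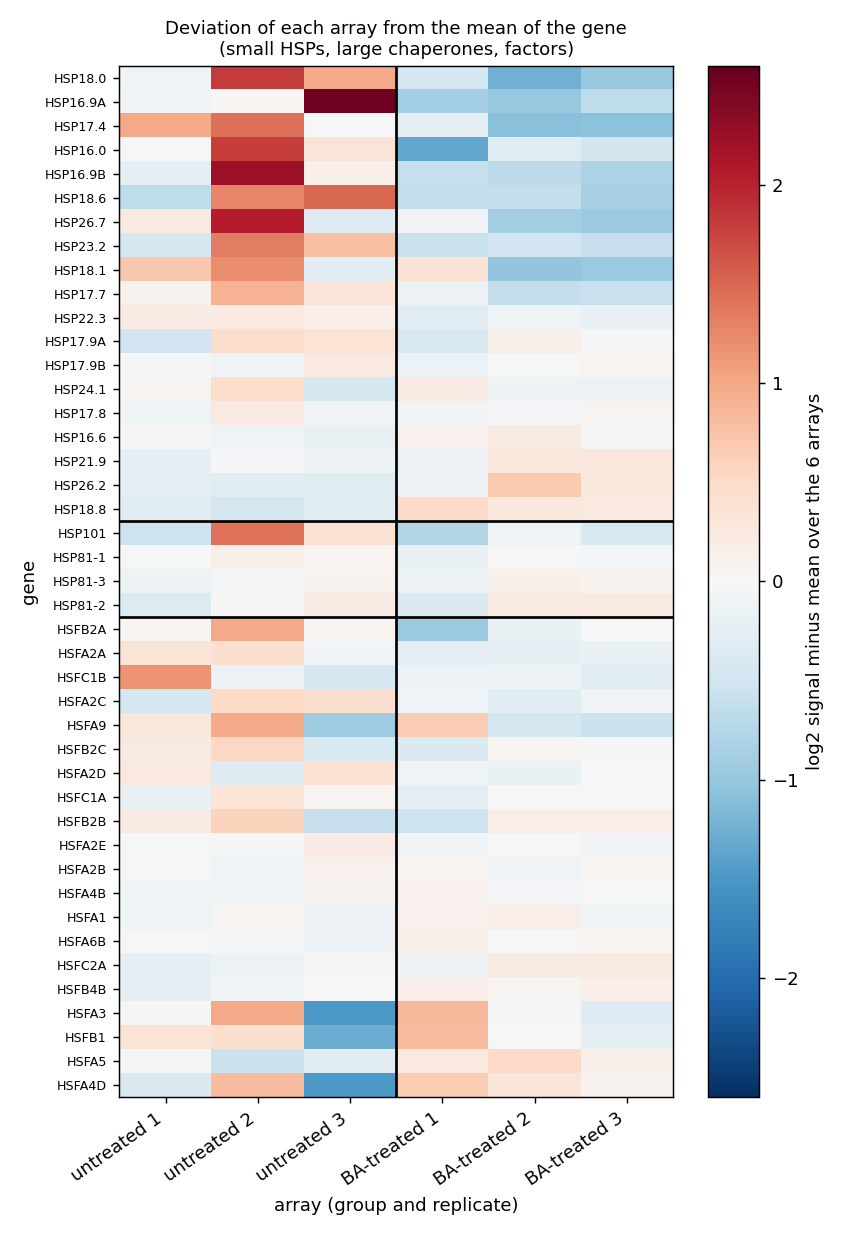
Deviation of the log2 signal on each array from the mean of that gene over the 6 arrays (colour, red above and blue below), with genes in rows and arrays in columns, the groups parted by the vertical line and small HSPs, large chaperones and factors by the horizontal lines. Untreated replicate 2 is the reddest column among the upper small HSPs, with a median of 1.44 for the 9 genes below -1 against -0.07 for untreated replicate 1.

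The arrays differed in other ways too. The signal of the 28S rRNA control was 28.3 to 47.1 on 5 of the arrays but 346 on untreated replicate 3. The mean log2 signal of the 36 poly-A control probe sets was 6.77, 7.36 and 8.01 on the untreated arrays and 5.79, 6.67 and 6.45 on the BA-treated arrays. The closest pair of arrays was BA-treated replicates 2 and 3, whose log2 signals differed with an SD of 0.16, where the SD of every other pair was 0.416 to 0.615. Leaf markers were measured for 8 of 29 named genes, with mean signals from 20.3 to 1546 without BA and from 21.2 to 1217 with BA. Of these 8, 7 lay above 0 with a median log2 change of 0.60, none was called, and rca and RBCS1 were higher at the thresholds of the study (0.79 each). Seed storage genes were measured for 8 of 9, with means from 17.2 to 66.4 without BA and from 17.3 to 73.3 with BA. The part of these differences in the heat shock results was not tested.

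Among the large chaperones, HSP101 followed the pattern of the low small HSPs and the HSP90 genes did not. HSP101, the disaggregase also named CLPB1, had signals of 68.5, 269 and 131 on the untreated arrays and of 58.6, 92.2 and 75.1 on the BA-treated arrays (log2 change -0.85, SE 0.49, adjusted p = 0.777). Its groups overlapped, since untreated replicate 1 lay inside the BA-treated range, and untreated replicate 2 was again the highest array. The log2 change was -1.33 without untreated replicate 1 and -0.35 without untreated replicate 2.

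HSP81-1, HSP81-2 and HSP81-3 encode proteins of the HSP90 family. The HSP81-1 signal was 1136, 1273 and 1199 without BA and 1009, 1130 and 1121 with BA, a narrow separation with no overlap (log2 change -0.15, SE 0.09, adjusted p = 0.786). A dimmer probe set of HSP81-1 gave -0.58 with overlapping groups. HSP81-2 had signals of 1748, 2300 and 2609 without BA and of 1738, 2634 and 2644 with BA (log2 change 0.07, adjusted p = 0.972), and replicate 1 was the lowest in both groups. HSP81-3 had signals of 2597, 2785 and 3024 without BA and of 2578, 3119 and 3024 with BA (log2 change 0.05, adjusted p = 0.953), with replicate 1 again the lowest in both. The HSP81-2 and HSP81-3 genes lie near each other on chromosome 9. Each is also listed together with other genes by probe sets that were not used. Whether the values of HSP81-2 and HSP81-3 are independent was not tested. The sign of both depended on single arrays: without untreated replicate 1 the changes were -0.093 and -0.0023.

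**Figure D4:**
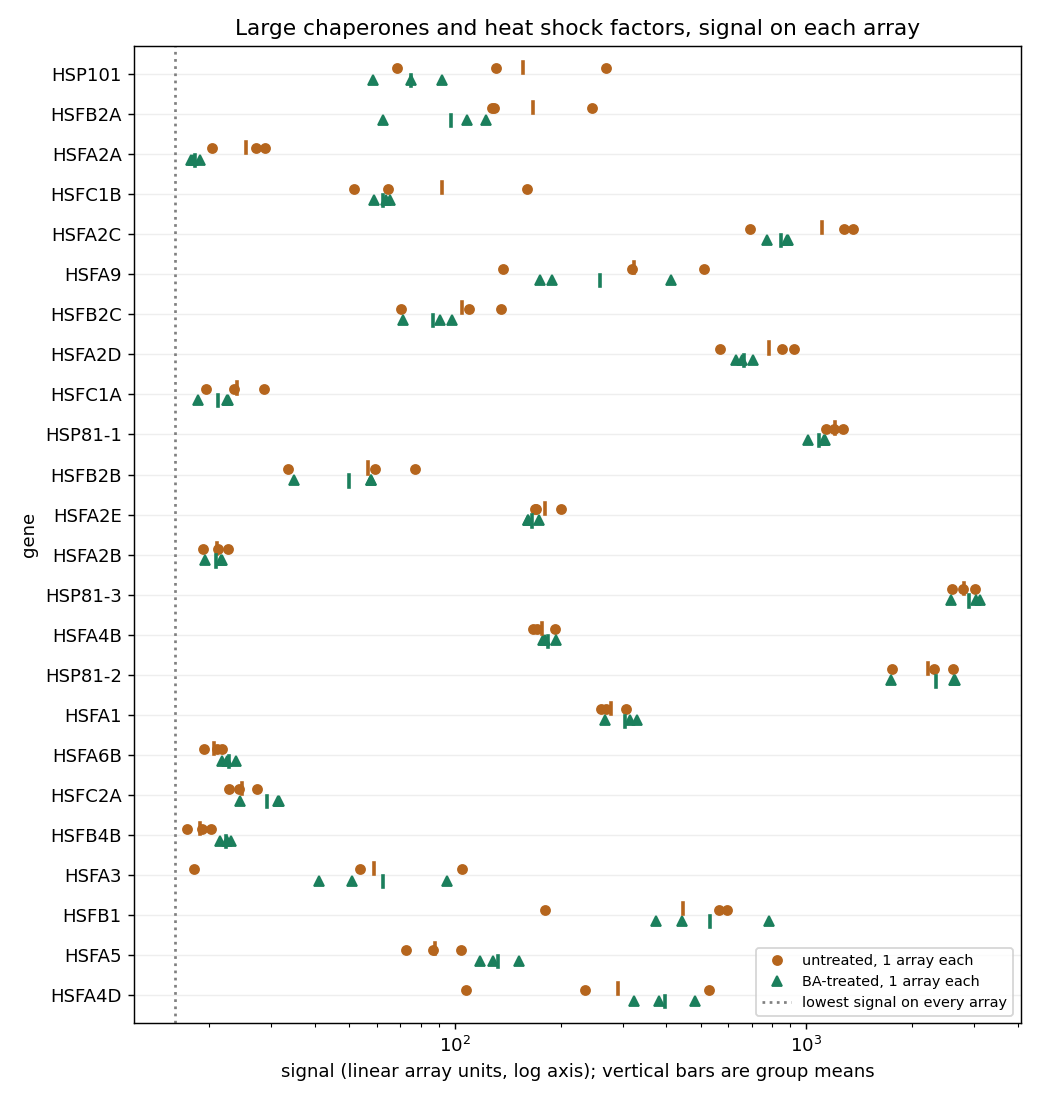
Signal of the 4 large chaperones and 20 factors on each array (x axis, linear array units on a log scale, 1 row a gene, circles untreated, triangles BA-treated, vertical bars the group means, dotted line the lowest signal of 16). HSFA5 and HSFB2A are among the few rows whose groups do not overlap, with HSFA5 at 104, 72.5 and 86.6 against 128, 152 and 118, while HSFA4D, HSFB1 and HSFA3 have an untreated array far below the rest.

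The factors were spread around 0, with 9 above it, 11 below it and 17 of 20 between -0.5 and 0.5. The median log2 change was 0.03 over 12 class A factors, -0.13 over 5 of class B and -0.15 over 3 of class C. For 6 of the factors the mean signal was under 30, close to the lowest signal of the arrays, so that little of any difference could be measured.

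HSFA5, a class A factor whose Arabidopsis and tomato relatives repress HSFA4, was the only factor past the thresholds of the study. Its signal was 104, 72.5 and 86.6 on the untreated arrays and 128, 152 and 118 on the BA-treated arrays, so every BA-treated array was above every untreated one (log2 change 0.60, SE 0.16, adjusted p = 0.345). HSFA4D, known in rice as the spotted leaf gene SPL7, had the highest log2 change of the 43 at 0.71, but its SE was 0.56. Its signal was 235, 529 and 108 without BA and 482, 381 and 323 with BA, and the untreated arrays lay on both sides of all BA-treated ones. Its change was 0.14 without untreated replicate 3 and 1.29 without untreated replicate 2.

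Factors of the HSFA2 group, which in Arabidopsis maintain the heat response, were lower or about equal with BA. HSFA2A had signals of 27.2, 28.8 and 20.4 without BA and of 18.1, 17.8 and 18.9 with BA, all near the lowest signal but with no overlap (log2 change -0.45, SE 0.14, adjusted p = 0.425). The other probe sets of HSFA2A, also near the lowest signal, gave -0.05 and -0.12 with overlapping groups. HSFA2C had signals of 691, 1358 and 1281 without BA and of 881, 770 and 887 with BA (log2 change -0.33, adjusted p = 0.863). HSFA2D had signals of 851, 566 and 924 without BA and of 654, 631 and 704 with BA (log2 change -0.21, adjusted p = 0.884). For both genes a single untreated array was below all 3 BA-treated ones, replicate 1 for HSFA2C and replicate 2 for HSFA2D. The HSFA2C change was -0.64 without untreated replicate 1, -0.16 without untreated replicate 2 and -0.20 without untreated replicate 3. A second probe set of HSFA2D had signals of 39.6, 47.5 and 38.6 against 26.5, 30.5 and 26.4, with no overlap and a log2 change of -0.57 (adjusted p = 0.188). The reference records of HSFA2C and HSFA2D also carry names of acireductone dioxygenases, enzymes of methionine salvage, and which transcript each probe set reads is not given. HSFA2E and HSFA2B had log2 changes of -0.12 and -0.0042.

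The other class A factors showed little beyond their spread. HSFA1, whose tomato and Arabidopsis relatives start the heat response, had a log2 change of 0.12, HSFA4B of 0.06 and HSFA6B of 0.13, the last with no overlap at signals between 19.3 and 24.0. HSFA3, which in Arabidopsis acts downstream of DREB2A, had a log2 change of 0.31 (SE 0.66) with untreated signals of 53.9, 105 and 18.2 and BA-treated signals of 95.1, 51.1 and 41.2, and the change was -0.36 without untreated replicate 3 and 0.88 without untreated replicate 2. HSFA9, which in Arabidopsis and sunflower acts in seeds, had a log2 change of -0.24 (SE 0.56).

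Class B held the factor with the lowest change. HSFB2A had signals of 128, 245 and 130 on the untreated arrays and of 62.4, 108 and 123 on the BA-treated arrays, with no overlap but only a small gap (log2 change -0.76, SE 0.36, adjusted p = 0.675). The change was -0.45 without untreated replicate 2 and -0.47 without BA-treated replicate 1. Its second probe set gave -0.50 with overlapping groups. HSFB1 had signals of 563, 593 and 180 without BA and of 782, 444 and 373 with BA (log2 change 0.37, SE 0.53, adjusted p = 0.926), and without untreated replicate 3 the sign turned to -0.19. The change was 0.66 without untreated replicate 2 and 0.053 without BA-treated replicate 1. HSFB4B was close to the lowest signal throughout, at 17.3, 19.1 and 20.3 without BA and 22.5, 21.5 and 23.2 with BA (log2 change 0.23, SE 0.09, adjusted p = 0.532). HSFB2B and HSFB2C had log2 changes of -0.13 and -0.24 with overlapping groups.

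The class C factors, whose role is little known, had overlapping groups. HSFC1B, HSFC1A and HSFC2A showed log2 changes of -0.37, -0.15 and 0.22. The HSFC1B signal ranged from 51.8 to 65.5 on 5 arrays and was 161 on untreated replicate 1, without which its log2 change was 0.11. Untreated replicate 3 was the lowest untreated array for 10 of the 20 factors, and untreated replicate 2 was the highest array of all for 9.

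Agreement between probe sets could be read for 14 genes with more than 1, out of 64 probe sets in all. For 11 of them all probe sets lay on one side of 0, and for HSFB2C, HSP81-3 and HSP18.6 they lay on both sides. This count reads the sign only and not the size of the change. Among the 11, HSP18.0 ran from -1.80 to -0.01, HSP17.7 gave -0.89 and -0.03, and HSFA2A ran from -0.45 to -0.05. Closer in size were HSP18.1 (-1.08 and -1.11), HSFA2C (-0.33 and -0.30) and HSFB4B (0.23 and 0.21). For 8 of the 43 genes the brightest probe set was not of the class designed for a single transcript. All other classes were treated here as open to cross-hybridization, whether or not they read other genes. When the probe sets of a gene were averaged instead of taking the brightest, the median log2 change of the small HSPs was -0.46.

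**Figure D5:**
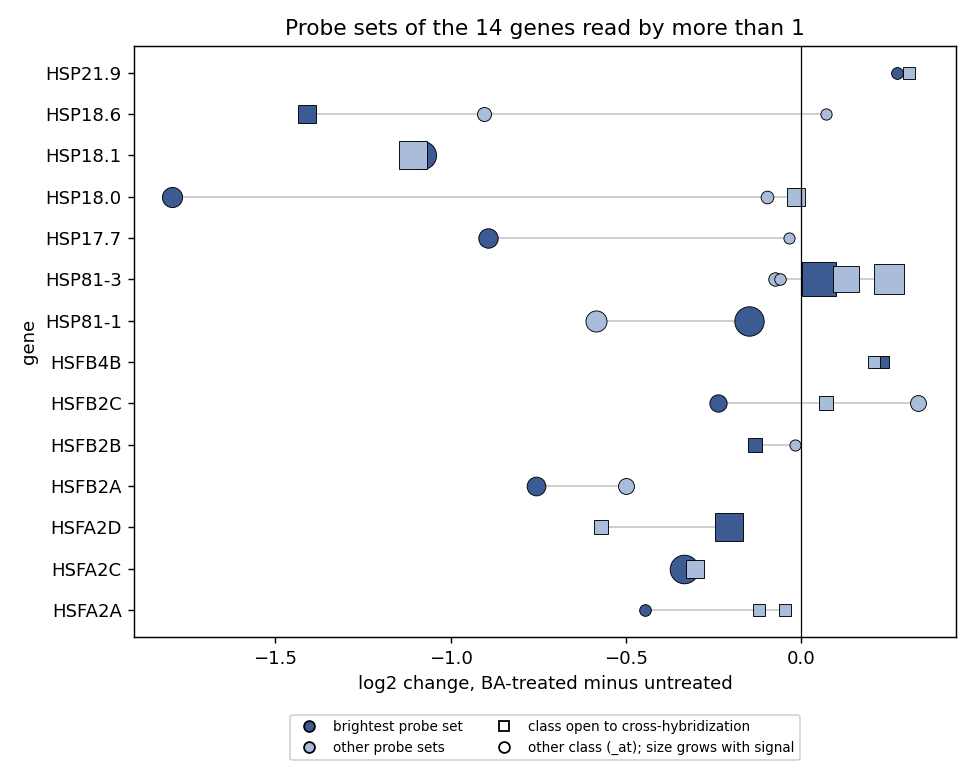
Log2 change (x axis, BA-treated minus untreated) of every probe set of the 14 genes with more than 1, dark for the brightest and light for the others. Squares mark the classes treated as open to cross-hybridization, and larger marks have a higher mean signal. The probe sets of HSP18.0 stretch from -1.80 to -0.01, whereas those of HSP18.1 lie at -1.08 and -1.11.

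Genes of the same pathways that carry other names were read from lists chosen by name, and none was called. Of 14 measured chaperones and co-chaperones, 5 lay above 0 and 9 below, with a median log2 change of -0.08. Of these, CLPB-C and CLPB-M are counted again among the heat-induced genes, and BIP1 and BIP4 among those of the endoplasmic reticulum. DJB6, a J-domain co-chaperone, was at 0.35 (adjusted p = 0.53) with no overlap, and CLPB-C, the chloroplast relative of HSP101, was at -0.45 (adjusted p = 0.821) with overlap. The 4 genes known to be induced together with HSPs in heat all lay below 0, CLPB-C and its mitochondrial relative CLPB-M at -0.45 and -0.41 and the cytosolic ascorbate peroxidases APX2 and APX1 at -0.15 and -0.01, every one with overlapping groups.

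Transcripts of genes for protein folding in the endoplasmic reticulum were not mostly lower with BA, and their contrast with the small HSPs was not tested. Of 16 measured genes, 10 lay above 0 and 6 below (median 0.06). At the thresholds of the study 2 were higher, where 1.73% of all probe sets and 3.18% of genes were. Some of the 16, BIP4, PDIL1-3 and PDIL1-2 among them, were near the lowest signal, so that little of any difference could be measured. BZIP50, a rice factor of the response to unfolded proteins in that compartment, had signals of 93.7, 128 and 60.9 without BA and of 479, 197 and 209 with BA (log2 change 1.57, SE 0.43, adjusted p = 0.341). PDIL2-3, a protein disulfide isomerase-like gene, had signals of 202, 227 and 186 without BA and of 423, 354 and 282 with BA (log2 change 0.77, SE 0.17, adjusted p = 0.225). In both the groups were well apart with BA-treated replicate 1 the highest. The lowest p among those below 0 belonged to PDIL5-2 (-0.38, adjusted p = 0.273) and PDIL1-5 (-0.29, adjusted p = 0.623), both with no overlap. Of the 3 measured DREB2 factors, which regulate drought and heat genes, DREB2B was at 1.01 (adjusted p = 0.703) with no overlap, DREB2D at 0.11 and DREB2A at -0.32. The DREB2B signal was 140, 120 and 61.8 without BA and 406, 144 and 148 with BA. The gap between its groups was small, and BA-treated replicate 1 was far above the other arrays.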

How the data were processed

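Detached leaves were measured on 6 Affymetrix rice arrays, 3 a group. The values the authors deposited are linear signal intensities, 1 for each probe set on each array, made with PLIER and variance stabilization. RMA is also named in the submitters' processing notes, without versions, and the scaling of arrays to each other is not given. The lowest intensity was 16.0 on every array and the medians lay between 22.5 and 23.3. Fold changes near that floor are understated.

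Probe sets were named through the platform annotation, whose gene identifiers were matched to the RefSeq gene names of assembly ASM3414082v1. A probe set listing several genes was not used. Intensities were analysed as log2(signal + 1), with no further normalization, with limma 3.58.1 (lmFit, eBayes) in R 4.3.3 and Benjamini-Hochberg adjustment over 57258 rice probe sets, without the 123 control probe sets. All adjusted p-values are from limma. The fit was tested on simulated data. Members and lists were chosen with earlier results of these data known.

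Named genes were those past an adjusted p of 0.05 or with no overlap past the study's thresholds, the 4 of smallest p and the 3 of highest signal per class, and up to 2 per related list and direction. Names beginning with BIP followed by more than 1 digit, which belong to other proteins, were left out of the related lists. Planned motif and protein comparisons were not run, because no sequences were used here. The alternatives covered normalization, spread estimate, array weights, log offset, dim and cross-hybridizing probe sets, averaged probe sets, a replicate block, each array left out, the averaging of BA-treated replicates 2 and 3, and an exact permutation test. Precision is limited throughout by the small number of arrays.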

Additional observations from a re-analysis of the deposited data

How the results depend on the processing

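Across the alternatives run for 29 named genes, HSP18.6 without untreated replicate 1 (adjusted p = 0.0354, limma) was the only one called. Correlations of same-numbered deviations were 0.42, -0.01 and 0.42, and those of unlike-numbered ones ran from -0.40 to 0.27. Whether replicate numbers pair the arrays was not settled by these values. With a replicate block limma called 0 of all probe sets in place of 53 higher and 38 lower, and 1 large chaperone and 1 factor were lower at the study's thresholds in place of 0 each. Without BA-treated replicate 2 or 3, or with both averaged, 0 probe sets were called. The sign turned without untreated replicate 3 for HSFB1 and HSFA3, without untreated replicate 1 for HSP81-2, HSP81-3 and HSFC1B, without untreated replicate 2 for HSP24.1, without BA-treated replicate 2 for HSP81-2, HSP81-3 and HSP24.1, without BA-treated replicate 3 for HSP81-2 and HSP24.1, and without BA-treated replicate 1 for HSFA3. With each array left out the log2 change was -0.19 to 0.66 for HSFB1, -0.093 to 0.27 for HSP81-2, -0.0023 to 0.14 for HSP81-3, -0.29 to 0.17 for HSP24.1, -0.36 to 0.88 for HSFA3 and -0.69 to 0.11 for HSFC1B. With BA-treated replicates 2 and 3 averaged it was -0.032 for HSP81-2 and 0.010 for HSP24.1, and without cross-hybridizing probe sets it was -0.074 for HSP81-3. Array weights gave -0.11 for HSFA3. In the other 528 values of single genes neither the direction nor the side of the threshold differed. Many of these could not differ, so their number does not measure robustness. Several settings keep the log2 change of the main fit by design, and some called 0 of all probe sets. By a two-sided exact permutation test no p was under 0.1, the smallest that 3 arrays against 3 allow. The count of small HSPs lower at the study's thresholds was 6, and it was 10 with an intensity trend, 10 with array weights, 3 with BA-treated replicates 2 and 3 averaged, and 3 to 8 with each array left out. The count of those higher was 1, and it was 2 with array weights, 0 without cross-hybridizing probe sets and 1 to 2 with each array left out. Their median of -0.89 was -0.46 with averaged probe sets and -1.04 to -0.59 with each array left out, and their calls were then 0 to 1. With each array left out, 0 to 1 large chaperones and 0 to 1 factors were lower at those thresholds, 2 to 4 large chaperones lay below 0, 0 to 1 factors were higher and the factors' median was -0.11 to 0.082. An offset of 16 left 0 factors higher. Shares of all probe sets at the study's thresholds were not taken for the alternatives. The causes were not tested. Filters on dim or cross-hybridizing probe sets left some named genes with no value.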
